A study of Mus musculus with 7 samples.

Results

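Seminal vesicle secretory cells fill much of their RNA with a few transcripts for proteins of the seminal fluid, and beside the *Svs2* to *Svs6* genes these cells also held 5 other abundant products, *Svs1*, *Sva*, *Ceacam10*, *9530003J23Rik* and *Dnase2b*. The genes were chosen by their levels in these same cells, so those levels are given as a description without a test. They are 5 of the 30406 genes whose Ensembl identifier is shared by the count tables of all 23 mice. Each value rests on UMIs (unique molecular identifiers), barcodes by which each captured RNA molecule is counted once. Cells were split into secretory cells, with at least 30% of their UMIs on *Svs2*, *Svs4*, *Svs5* and *Svs6* together, prostate-like cells, with at least 0.5% of their UMIs on *Tgm4* and *Pbsn* together, and all other cells.

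Male wild-type mice of both FVB/NJ and C57BL/6J strains gave the tissue. An aging pool held 10 C57BL/6J mice on chow, 2 of them untreated at 3 months, and at both 20 and 28 months 2 untreated and 2 given rapamycin for a limited time. A diet pool held 8 FVB/NJ mice of 3 months, 2 each on a purified control diet, caloric restriction (a reduced ration of the same kind of diet, to singly housed mice), a high fat diet and a low protein diet. In each pool the mice were tagged and run together. For the control diet, the high fat diet and the low protein diet, 1 more FVB/NJ mouse of 3 months was run as a single-mouse library, as were a young (3 months) and an old (18 months) FVB/NJ individual. Strain, chow and pool changed together and cannot be told apart.

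*Svs1* encodes a secreted protein of the copper amine oxidase family. *Sva* encodes seminal vesicle antigen, a relative of prolactin-inducible protein that binds sperm and dampens their motility. *Ceacam10* encodes a small secreted glycoprotein of the carcinoembryonic antigen family that also binds sperm. *9530003J23Rik* encodes a protein of the C-type lysozyme family, whose best known members cut bacterial cell walls. *Dnase2b* encodes an acid endonuclease, known from the lens, where it clears DNA from maturing fibre cells. The epithelium of this gland depends on androgen, and many of its secreted products fall after castration.

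The genes lie on 4 chromosomes (GRCm38, GENCODE vM21), and all are protein coding. *Svs1* (ENSMUSG00000039215, chr6:48986861-48991722, plus strand, 5 exons) starts 8.12 kb after its relative *Doxl2* and overlaps *4930563H07Rik* on the other strand. *Sva* (ENSMUSG00000023289, chr6:42038394-42042851, plus strand, 4 exons) lies 65.3 kb from *Sval3*, 82.3 kb from *Sval1* and 186 kb from *Pip*, members of its family. *Ceacam10* (ENSMUSG00000054169, chr7:24777206-24784657, plus strand) has 4 exons. *9530003J23Rik* (ENSMUSG00000020177, chr10:117232237-117238703, minus strand, 5 exons) lies 38.63 kb from *Lyz2* and 49.09 kb from *Lyz1*, the lysozyme genes of macrophages and of Paneth cells. *Dnase2b* (ENSMUSG00000028185, chr3:146580985-146615596, minus strand, 7 exons) lies within the span of *Uox*, which is read from the other strand.

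The 250 bases before the RefSeq start of each gene (GRCm38.p6, 5′ to 3′ on the strand of the gene) are shown because the gland depends on androgen, with capitals marking AGAACA, or TGTTCT where it reads on the other strand, the core of the steroid hormone response element.
*Svs1*, chr6:48986611-48986860, plus strand: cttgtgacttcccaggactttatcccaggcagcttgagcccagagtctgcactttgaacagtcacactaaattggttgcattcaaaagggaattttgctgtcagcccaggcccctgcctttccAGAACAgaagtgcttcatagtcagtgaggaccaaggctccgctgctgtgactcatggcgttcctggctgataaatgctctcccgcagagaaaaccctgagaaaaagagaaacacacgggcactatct
*Sva*, chr6:42038144-42038393, plus strand: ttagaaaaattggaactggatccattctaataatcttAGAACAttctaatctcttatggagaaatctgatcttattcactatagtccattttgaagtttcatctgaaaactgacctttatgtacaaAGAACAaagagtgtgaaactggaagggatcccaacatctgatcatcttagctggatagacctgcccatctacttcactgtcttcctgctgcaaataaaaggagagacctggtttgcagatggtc
*Ceacam10*, chr7:24776917-24777166, plus strand: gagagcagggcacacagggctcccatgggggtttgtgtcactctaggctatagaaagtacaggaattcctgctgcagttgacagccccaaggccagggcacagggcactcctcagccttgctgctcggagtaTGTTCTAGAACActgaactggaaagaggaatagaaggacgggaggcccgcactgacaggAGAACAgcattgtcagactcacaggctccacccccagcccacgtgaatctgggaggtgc
*9530003J23Rik*, chr10:117238682-117238931, minus strand: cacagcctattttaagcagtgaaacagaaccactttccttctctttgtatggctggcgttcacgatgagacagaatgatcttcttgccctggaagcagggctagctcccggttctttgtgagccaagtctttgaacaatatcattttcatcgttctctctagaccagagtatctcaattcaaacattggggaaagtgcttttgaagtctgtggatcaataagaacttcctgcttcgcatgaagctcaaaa
*Dnase2b*, chr3:146615599-146615848, minus strand: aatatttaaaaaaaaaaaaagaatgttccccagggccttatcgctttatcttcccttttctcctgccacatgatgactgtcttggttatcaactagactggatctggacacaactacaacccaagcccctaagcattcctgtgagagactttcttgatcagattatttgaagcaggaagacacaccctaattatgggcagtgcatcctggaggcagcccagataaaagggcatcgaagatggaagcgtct
The AGAACA core was found once before *Svs1*, 127 bases from the start, and at 2 places before *Sva*, 213 and 124 bases from the start. The *Ceacam10* window held 3 matches, at 118, 112 and 59 bases, of which the first (TGTTCT) and the next (AGAACA) touch each other with no base between them. No match was found before *9530003J23Rik* or *Dnase2b*, and TATAAA on the strand of the gene was found before none of the 5 genes. Among 27025 mouse promoters of the same length, 16.2% held AGAACA on either strand, 1.84% held at least 2 matches and 8.12% held TATAAA. These matches describe letters and do not show binding.

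The mice had 222 to 11773 cells and 1039976 to 48535982 UMIs each as deposited, and the filter kept 40306 of 53352 cells. The secretory class held 9712 cells of 21 mice (15 to 3020 per mouse) and the prostate-like class 676 cells of 20 mice (4 to 91 per mouse). Another 18 cells met both rules and were counted apart. Few cells lay near the limits, with 61 cells just under (25 to 30%) and 72 just over (30 to 35%) the *Svs* limit, and 28 cells at 0.4 to 0.5% and 38 cells at 0.5 to 0.6% for *Tgm4* and *Pbsn*. The young and the old individual had no secretory and no prostate-like cell, and markers of the epididymis (*Lcn8*, *Lcn9*, *Gpx5*, *Adam7*) were found in many of their cells, so both libraries stood apart from their label of seminal vesicle. They enter only the values of other cells, which are given with them and, as ranges, without them. Of 53031 distinct barcodes, 320 occurred in more than 1 library.

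In secretory cells the 5 products ranged from among the most abundant RNAs of the cell to a moderate level. In counts per 1000000 UMIs of the same cells (CPM), which count molecules and are not divided by gene length, *Sva* had a median of 23899 over 21 mice (lowest 693, highest 37632) and *Ceacam10* a median of 21369 (12856 to 29046). The ranges of these genes overlapped, with *Sva* ranked 7 and *Ceacam10* ranked 8 among all genes by its median. *Svs1* followed at 8504 CPM (926 to 11731, rank 13), below the lowest *Ceacam10* value in every mouse. *9530003J23Rik* was at 5257 CPM (3509 to 7086, rank 14), a range that overlapped that of *Svs1*. *Dnase2b* was at 463 CPM (59.2 to 688, rank 116) and its highest mouse lay below the lowest mouse of each other product. Other products of the gland that the rule did not use, *Pate4* (median 37621 CPM, rank 5) and the protease inhibitor *Spink1* (17990 CPM, rank 9), stood at levels like those of the 5 genes.

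In the 21 mice with secretory cells, the counts of the products came almost wholly from these cells. They held 99.2% of the *Sva* UMIs, 98.9% of those of *Svs1* and of *Ceacam10*, 98.1% of those of *Dnase2b* and 97.3% of those of *9530003J23Rik*. The young and the old individual, left out of these shares, held a further 18513 and 23814 *Ceacam10* UMIs in other cells. In prostate-like cells of the 18 mice with at least 5 such cells, *Svs1* had a median of 59.8 CPM, *Sva* of 135 CPM, *Ceacam10* of 230.1 CPM and *Dnase2b* of 9.55 CPM. *9530003J23Rik* differed, with a median of 1250 CPM (14.5 to 6049). In all other cells of the 23 mice the medians were 234 CPM for *Svs1*, 418 for *Sva*, 609 for *Ceacam10*, 144 for *9530003J23Rik* and 21.2 for *Dnase2b*. Without the young and the old individual, other cells held *Svs1* at between 73.6 and 780.5 CPM, *Sva* at between 121 and 1404 CPM, *Ceacam10* at between 219.8 and 1197 CPM, *9530003J23Rik* at between 64.0 and 412 CPM, and *Dnase2b* at between 2.42 and 55.2 CPM.

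**Figure D1:**
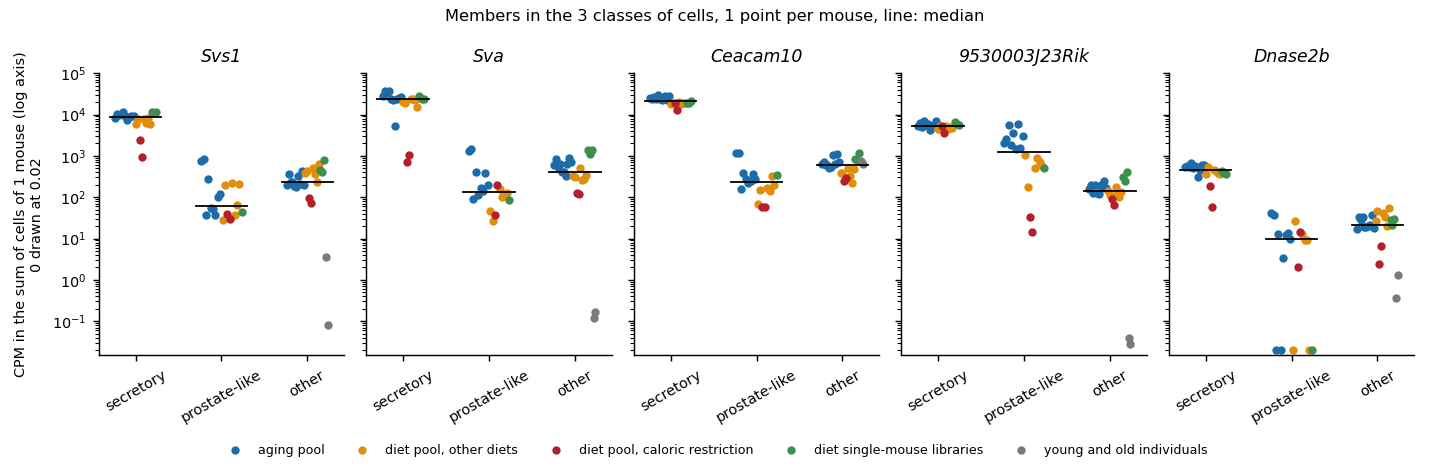
Level of each product in CPM (log axis) in secretory, prostate-like and other cells, with 1 point per mouse and a line at the median. The prostate-like points of *9530003J23Rik* ran up to 6049 CPM, among its secretory points (3509 to 7086 CPM), and those of *Sva* up to 1431 CPM, above its secretory points under caloric restriction (693 and 1042 CPM).

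Within mice the secretory level was a median of 84.2 times the prostate-like level for *Svs1*, 134 times for *Sva* and 102 times for *Ceacam10*, and it was above it in all 18 mice for each. For *Dnase2b* the ratio was 43.3 in the 13 mice with a value above 0 in prostate-like cells, and 5 mice had no *Dnase2b* UMI there. For *9530003J23Rik* the ratio was 4.13, ran from 0.684 to 242, and was above 1 in 16 of 18 mice. Against other cells of the same mouse (21 mice), the median ratios were 26.2 for *Svs1*, 44.7 for *Sva*, 40.9 for *Ceacam10*, 34.1 for *9530003J23Rik* and 16.3 for *Dnase2b*, and each was above 1 in all 21 mice.

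Droplets also take up RNA that is free in the cell suspension, and a shared source adds its genes in the same ratio to every cell. The products were therefore set against the *Svs2*, *Svs4*, *Svs5* and *Svs6* UMIs of the same cells. In secretory cells of the aging pool, 1000 UMIs of these *Svs* genes came with 17.6 UMIs of *Svs1*, 55.5 of *Sva*, 44.6 of *Ceacam10*, 10.9 of *9530003J23Rik* and 1.03 of *Dnase2b*. Aging-pool cells with fibroblast markers gave 13.4, 43.3, 46.4, 10.5 and 1.07 in the same order of genes, and cells with T and NK markers gave 16.1, 38.4, 42.9, 10.6 and 1.28. The ratios in these cells, which have no known secretory role of this kind, were close to those in secretory cells of the aging pool. Whether their CPM came from free RNA or from expression was not tested. In the diet pool the *Svs1* ratio varied more between marker classes, from 9.78 in basal-marker cells to 30.1 in T and NK-marker cells, against 9.94 in secretory cells, whose sum includes the mice under caloric restriction. Cells with basal markers (*Krt5*, *Krt14*, *Krt15*, *Trp63*) gave lower ratios in the aging pool for all 5 products, at 9.64 for *Svs1*, 17.6 for *Sva*, 28.4 for *Ceacam10*, 6.00 for *9530003J23Rik* and 0.74 for *Dnase2b*. In the single-mouse diet libraries the *9530003J23Rik* ratio of basal-marker cells was near the secretory ratio (9.48 against 9.74).

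*9530003J23Rik* stood above the secretory ratio in the prostate-like sums of each library set. Its UMIs per 1000 *Svs* UMIs were 150 in prostate-like cells against 10.9 in secretory cells of the aging pool, and 183 against 8.28 in the diet pool. In the single-mouse diet libraries they were 72.7 against 9.74, on 16 UMIs in 11 cells. The diet-pool sum joins mice that differ. Per mouse, prostate-like cells held 64.7 to 555 on the other diets. The restricted mice held 19.2 and 3.47 there, and 8.64 and 6.06 in secretory cells. *Ceacam10* (41.4 against 44.6) and *Sva* (45.5 against 55.5) were near the secretory ratio in the prostate-like cells of the aging pool, and *Svs1* was above it (26.3 against 17.6). In the diet pool *Svs1* (27.4 against 9.94) and *Dnase2b* (1.63 against 0.61) were above it too. In macrophage-marker cells of the aging pool, where *Lyz2*, the neighbour and relative, reached 4853 CPM, *9530003J23Rik* was at 10.6 per 1000 *Svs* UMIs. Cells of the diet pool that fell in no marker list held more *Svs1* (41.4 against 9.94) and *Dnase2b* (3.93 against 0.61) per 1000 *Svs* UMIs than its secretory cells. In the single-mouse diet libraries the ratios of such cells were 13.8 for *Svs1* and 0.53 for *Dnase2b*, and so below those of its secretory cells.

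**Figure D2:**
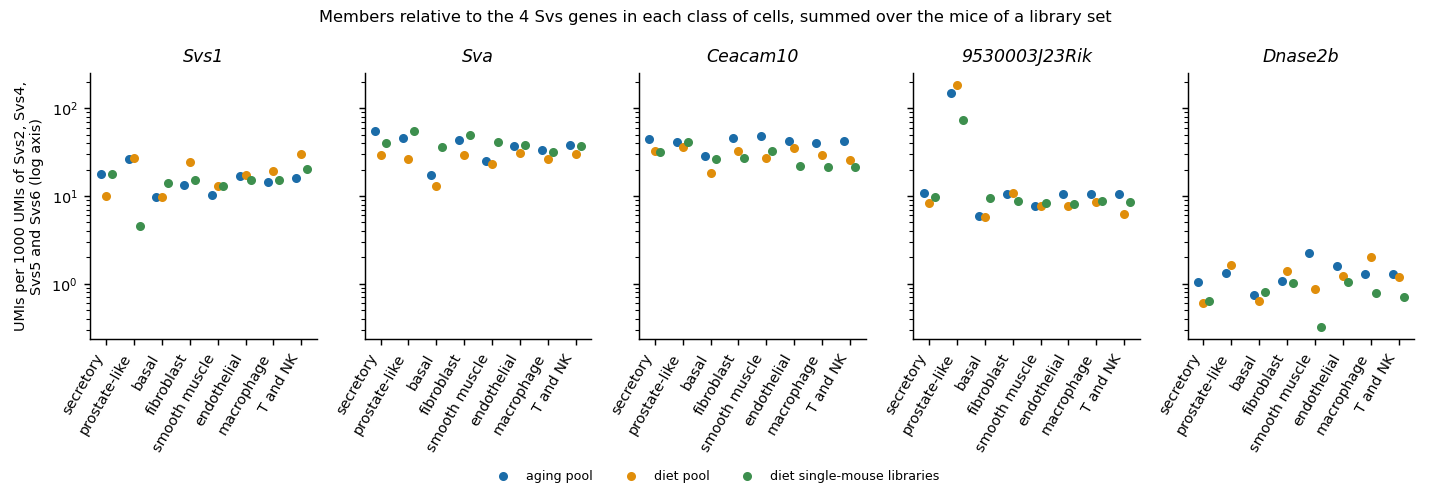
UMIs of each product per 1000 UMIs of *Svs2*, *Svs4*, *Svs5* and *Svs6* (log axis) by class of cell, summed over the mice of each library set (aging pool, diet pool and single-mouse diet libraries). In the aging pool *Ceacam10* sat near its secretory value in most classes, and *Sva* sat below its own in every other class (17.6 to 45.5 against 55.5). *9530003J23Rik* in prostate-like cells stood above its secretory value, at 72.7 to 183 over the library sets. The diet-pool sum includes the restricted mice, at 19.2 and 3.47. In the diet pool *Svs1* and *Dnase2b* sat above their secretory values in several classes. *Svs1* reached 30.1 in T and NK-marker cells against 9.94, and *Dnase2b* 2.01 in macrophage-marker cells against 0.61.

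In prostate-like cells the level of *9530003J23Rik* differed between pools and under caloric restriction. *Tgm4* encodes the transglutaminase of the coagulating gland, and *Pbsn* encodes probasin, an androgen-regulated product of the prostate. The 9 mice of the aging pool held 1428 to 6049 CPM of *9530003J23Rik* (median 2573), and the diet-pool mice on the other diets held 1071 and 176 CPM (control), 516 and 903 CPM (high fat) and 722 and 581 CPM (low protein). Both mice under caloric restriction were lower still, at 33.5 CPM (33 UMIs in 48 cells) and 14.5 CPM (1 UMI in 6 cells). No value of the aging pool overlapped those of the diet pool, and neither restricted mouse overlapped the others. How many other genes were separated in the same way was not counted.

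Both contrasts were tested with edgeR on UMIs summed per mouse and were added after the levels had been seen, so their tests describe a pattern already noticed. Under caloric restriction 11 of 6983 genes were lower than on the other diets (0.158%), and *9530003J23Rik* was among them, with a log2 change of -4.53 ± 0.77 (standard error) and an edgeR adjusted p of 0.00647. The call was lost without caloric restriction replicate 1 (-5.86, edgeR adjusted p 0.11) and without replicate 2 (-4.34, 0.063). *Svs1* (-1.67 ± 1.28), *Sva* (-0.65 ± 1.11), *Ceacam10* (-1.54 ± 0.81) and *Dnase2b* (-1.06 ± 1.54) did not pass, on few counts. The genes called split into 4 higher and 11 lower, into 6 and 9 with library sizes not scaled by TMM, and into 8 and 28 with DESeq2.

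Against the diet-pool mice on other diets, the aging pool was higher in 329 of 6983 genes (4.71%). *9530003J23Rik* was higher by 2.15 ± 0.35 on the log2 scale (edgeR adjusted p 0.00026). *Sva* (2.33 ± 0.59, edgeR adjusted p 0.0135) and *Ceacam10* (1.63 ± 0.43, 0.018) were called as well, and *Svs1* (1.30 ± 0.66, 0.226) and *Dnase2b* (1.52 ± 0.74, 0.203) were not. Of the 11 companion products listed further on, *Svs2*, *Svs3a* and *Svs4* were higher and 8 were not called. The *Ceacam10* call was lost without control diet pool replicate 1 (1.40, edgeR adjusted p 0.063) and with DESeq2 (1.46, adjusted p 0.06). The *Svs* share of these cells ran from 0.356 to 3.12% for the aging pool and from 0.193 to 0.755% for diet-pool mice on the other diets. The part of this difference in the levels of *Sva* and *Ceacam10* was not tested.

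Within the prostate-like class, *9530003J23Rik* was higher in cells with more *Tgm4* than *Pbsn* UMIs or as many. In the aging pool these cells held 2537 CPM (289 cells) against 1031 CPM in cells with more *Pbsn* (77 cells), and in the diet pool on other diets 980.4 CPM (183 cells) against 261 CPM (62 cells). Under caloric restriction the order was the other way, at 27.9 CPM (44 cells) and 65.0 CPM (10 cells), with 26 and 8 UMIs. These sums join cells of several mice and carry no test.

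In secretory cells, 3 of the 5 products were lower under caloric restriction. *Sva* stood at 693 and 1042 CPM in the restricted mice, against 15447 to 24160 CPM (median 21367) in the 6 diet-pool mice on other diets. *Svs1* stood at 2486 and 926 CPM against 5893 to 8314 CPM, and *Dnase2b* at 186 and 59.2 CPM against 355 to 546 CPM. For each of these genes both restricted mice lay below every other mouse of the pool. The share of all genes with this order was not counted. *Ceacam10* was at 19126 and 12856 CPM against 17867 to 20430 CPM, so that restricted mouse 1 lay within the range of the others and restricted mouse 2 below it. *9530003J23Rik* was at 5257 and 3509 CPM against 4446 to 5245 CPM, with mouse 1 just above and mouse 2 below that range.

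The test compared restriction with the control diet in an edgeR fit over all 21 mice, with terms for condition and for single-mouse library. Of 7934 genes, 51 were lower (0.643%) and 30 higher. *Sva* was lower by a log2 of -5.11 ± 0.50, a fold of 0.0290 (edgeR adjusted p 4.66e-06). *Svs1* fell with a log2 change of -2.41 ± 0.37 (edgeR adjusted p 0.00127) and *Dnase2b* with one of -2.14 ± 0.36 (0.00261). *Ceacam10* (-0.65 ± 0.25, edgeR adjusted p 0.25) and *9530003J23Rik* (-0.60 ± 0.26, 0.325) did not pass, with intervals (2 standard errors to each side) of -1.16 to -0.14 and -1.13 to -0.07. Without caloric restriction replicate 1, *Ceacam10* passed (-1.18, edgeR adjusted p 0.036), as it did in cells with at least 50% *Svs* UMIs (-0.84, 0.0475) and with no filter on low counts (-0.65, 0.032). *Svs1* and *Dnase2b* lost their calls without the 5% of cells with most UMIs (-1.82, edgeR adjusted p 0.0764, and -1.42, 0.118).

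**Figure D3:**
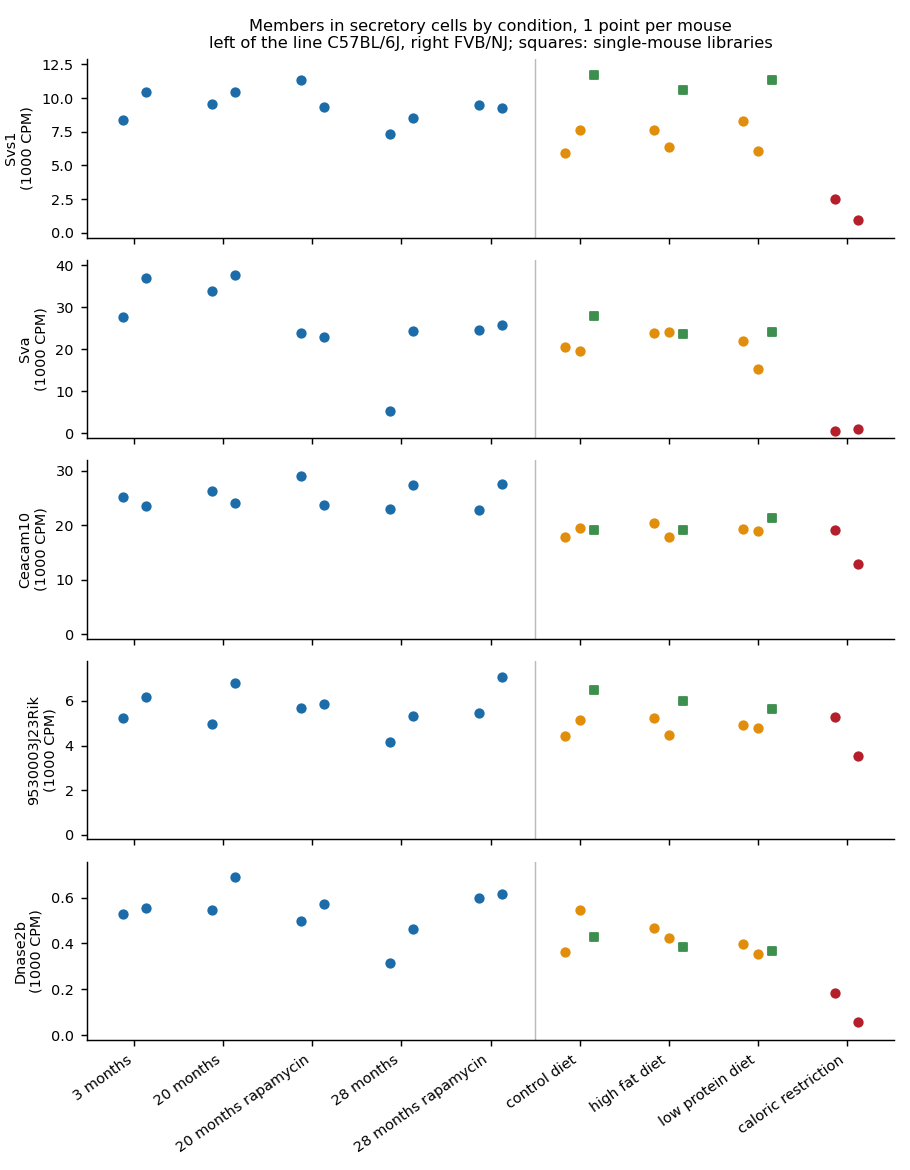
Level of each product in secretory cells (linear axis) by condition, with 1 point per mouse and squares for single-mouse libraries. The points for caloric restriction lay below all others for *Sva* (693 and 1042 CPM), *Svs1* (2486 and 926 CPM) and *Dnase2b* (186 and 59.2 CPM), and *Sva* was also low in 1 mouse of 28 months (5434 CPM).

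The balance of higher and lower genes under restriction depended on the scaling. Scaled by library size alone, 124 genes were higher and 27 lower and the median of all genes moved to 0.43, and with the *Svs* genes left out of the library size 835 were higher and 35 lower and the median moved to 0.55, against a median of 0.02 in the TMM fit. *Sva* remained called under both (-4.61 and -4.52), as did *Svs1* (-2.01 and -1.88), while *9530003J23Rik* moved to -0.17 and -0.05. The 5 products had a median change of -2.14 and the list of 11 other abundant products one of -1.99, beside 0.02 for all genes tested. Both lists were chosen with earlier results of these data known, so these medians are a description. *Svs2*, *Svs4*, *Svs5* and *Svs6*, which define the class of cells, are among the 11.

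Of those 11 companion products, 8 were lower and 3 did not pass. *Svs3a* (-3.45 ± 0.34), the trypsin inhibitor *Spink1* (-3.53 ± 0.33), *Spink11* (-4.10 ± 0.49) and the beta-defensin *Defb42* (-6.13 ± 0.94, edgeR adjusted p 0.00127) had the greatest falls, and *Svs3b*, *Svs6*, *Pate4* and *Spinkl* fell by less. The most abundant RNAs of the cell did not pass, with *Svs5* at -0.52 ± 0.23, *Svs2* at -0.76 ± 0.24 and *Svs4* at 0.24 ± 0.17. These genes and *Svs6* define the secretory class, so the rule limits how far they can fall together. Their changes are therefore no independent contrast to those of the other products. *Sval2* (-4.12 ± 0.57, edgeR adjusted p 0.00037), a relative of *Sva*, and *Doxl2* (-3.50 ± 0.56, 0.0019), the neighbour and relative of *Svs1*, were the relatives called, out of 26 listed and 6 with enough counts to test.

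**Figure D4:**
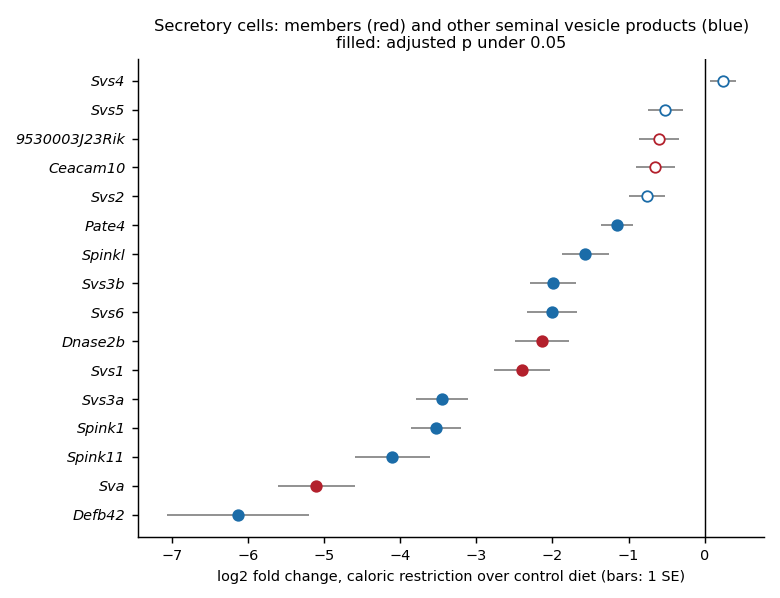
Log2 change between caloric restriction and control diet in secretory cells for the 5 products (red) and the other abundant seminal vesicle products (blue), with bars of the standard error and filled points where the adjusted p was under 0.05. *Sva* had a change of -5.11, while *Ceacam10* (-0.65) and *9530003J23Rik* (-0.60) stood near *Svs2* (-0.76) and *Svs5* (-0.52). *Svs2* and *Svs5* are among the genes that define the secretory class, which limits their fall.

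The restricted mice gave 89 and 17 secretory cells with median depths of 31525 and 22242 UMIs per cell, within the 16 to 124 cells and 20172 to 43506 UMIs of the other diet-pool mice. Their *Svs* shares were 60.8 and 57.9%, beside 55.4 to 59.6% in the others. Smooth muscle markers (*Myh11*, *Acta2*, *Tagln*, *Cnn1*) summed to 114 and 48.5 CPM in the secretory cells of the restricted mice, above the 3.77 to 34.4 CPM of the others. Their part in the fall of the products was not tested.

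The fall of *Sva* and *Svs1* was also seen between cells with the same *Svs* share. In CPM of the UMIs outside the 4 *Svs* genes, summed over the restricted mice, *Sva* stood at 324 in cells with 40 to 50% *Svs* UMIs, 248 at 50 to 60%, 2962 at 60 to 70% and 6774 at 70% or more. The same cells of the other diet-pool mice held 29540, 55618, 62934 and 47645. *Svs1* was at 2072, 5278, 8031 and 5136 under restriction, against 15421, 16936, 17482 and 9742. *Ceacam10* was at 18828, 35749, 59963 and 93733, against 22184, 44670, 59648 and 82370, and so lay close to the other diets in the upper bands.

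Among single secretory cells, mice with a low *Sva* level had a large share of cells with hardly any *Sva*. Under restriction, 80 of 89 cells (89.9%) and 16 of 17 cells (94.1%) had less than 0.1% of their UMIs on *Sva*, with a median *Sva* level per cell of 68.0 CPM and 0 CPM. Among the other mice the share was highest in 28 months mouse 1, at 20 of 35 cells (57.1%), and in control diet pool mouse 1, at 33 of 124 cells (26.6%). The remaining pool mice had 2.65 to 19.7% of such cells and the single-mouse diet libraries 2.19 to 7.87%. In the pools few cells lay between 0.1 and 0.3%, namely 6 and 0 in the restricted mice and 0 to 4 in each other mouse. The single-mouse diet libraries held 65, 112 and 93 cells there (control, high fat and low protein) beside 103, 210 and 66 cells under 0.1%.

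**Figure D5:**
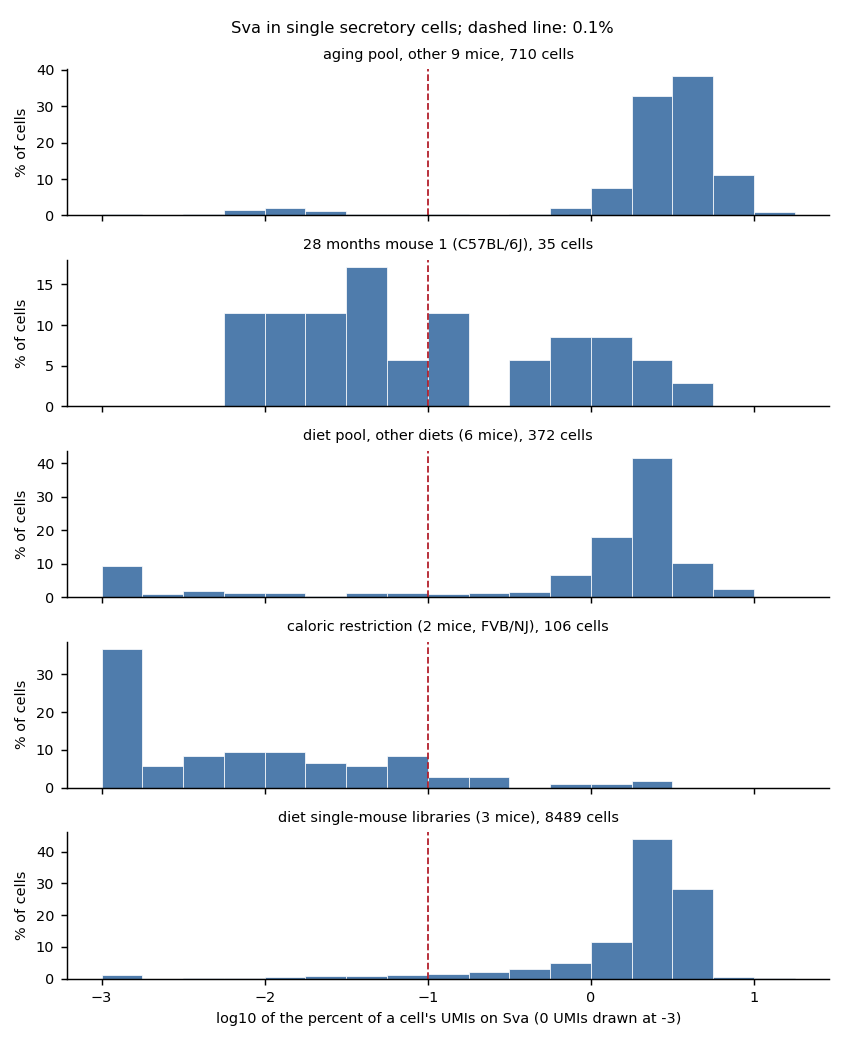
Share of secretory cells (percent of cells in each group) by the log10 of the percent of their UMIs on *Sva*, with a dashed line at 0.1%. Most cells of mice on other diets and of the aging pool lay to the right of the line, and most cells under caloric restriction (80 of 89 and 16 of 17) lay to the left.

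The other products were lower too in secretory cells with little *Sva*, set against other secretory cells of the same mouse. The 7 mice with 10 or more cells of each kind were used, a choice made after the distribution had been seen. Neither restricted mouse was among them. The log2 ratio of low to other cells had a median of -0.97 for *Svs1* (-3.02 to -0.37), -1.15 for *9530003J23Rik* (-3.47 to -0.02), -1.32 for *Dnase2b* (-4.37 to -0.42) and -0.47 for *Ceacam10* (-2.69 to -0.12). Each was lower in 7 of 7 mice, but only named genes were compared, and the share of all genes lower in 7 of 7 mice was not counted. The companion products *Svs3b* (median -1.74) and *Spink1* (-1.36) were also lower in 7 of 7 mice, and *Svs6* (-1.36) and *Svs3a* (-1.01) in 6 of 7, while *Svs5* (0.18) and *Svs4* (0.02) were near the other cells. *Lyz2*, a macrophage gene, was higher in the cells with little *Sva* in the 4 mice with a value, by 0.90 to 2.88 on the log2 scale. The cells with little *Sva* had a lower median UMI count in 5 of these mice (for example 28988 against 47308 in control diet pool mouse 1), a near equal count in 28 months mouse 1 (40890 against 40912) and a higher count in low protein pool mouse 2 (31352 against 20560). The part of depth or of other cells' RNA in these ratios was not tested, and the cells were split on *Sva*, so no test is given.

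None of the products passed the test on the high fat or the low protein diet. In the high fat comparison 0 of 7934 genes (0%) passed, with 94 genes at an unadjusted p under 0.05 and 0 genes called by DESeq2, and in the low protein comparison 0 genes (0%) passed, with 127 genes at an unadjusted p under 0.05 and 0 called by DESeq2. The changes of the 5 genes on the log2 scale ran from 0.17 (*Dnase2b*) to 0.33 (*Sva*) on high fat and from -0.14 (*Dnase2b*) to 0.18 (*Ceacam10*) on low protein. The intervals were wide enough to hold moderate changes, from -0.37 to 1.03 for *Sva* on high fat and from -0.70 to 0.42 for *Dnase2b* on low protein.

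With age the products held similar levels in most mice. *Sva* was at 27613 and 36975 CPM at 3 months, 33917 and 37632 CPM at 20 months, and 5434 and 24439 CPM at 28 months. The untreated mice of 20 and 28 months against those of 3 months gave 0 called genes (0%) by edgeR, with 420 at an unadjusted p under 0.05 and 3 called by DESeq2. *Sva* had a log2 change of -0.50 ± 0.36 and the other products changes from -0.18 (*Dnase2b*) to 0.01 (*Ceacam10*). The *Sva* value turned on which mouse of 28 months was kept, at -1.36 without 28 months replicate 2 (edgeR adjusted p 0.0056) and -0.14 without 28 months replicate 1.

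Rapamycin at 20 and 28 months changed 4 of 7934 genes (0.0504%), none of them one of the 5 products. *Pbsn*, which marks the prostate-like cells, was among the 4 and was higher in the secretory sums of treated mice by 2.52 ± 0.36 (edgeR adjusted p 0.0017). *Sva* was at 23899 and 23015 CPM in treated mice of 20 months and 24521 and 25897 CPM in treated mice of 28 months, which lay below both untreated mice at 20 months and above both at 28 months. The log2 changes ran from 0.03 (*Sva* and *Ceacam10*) to 0.19 (*Dnase2b*). Without 28 months replicate 2, *Sva* passed at 0.87 (edgeR adjusted p 0.0398), and without 28 months replicate 1 it was at -0.35. C57BL/6J mice against FVB/NJ mice at 3 months, which also differ in diet and pool, gave 126 called genes (1.59%), with none of the products among them and changes from 0.26 (*9530003J23Rik*) to 0.67 (*Sva*).

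Levels also differed between the kinds of library. The mice and the Cell Ranger version (3.1.0 for single-mouse libraries, 6.0.1 for the pools) changed with the kind of library, so these cannot be told apart. The single-mouse diet libraries held *Svs1* at 11731, 10623 and 11309 CPM, all above the diet-pool range. *9530003J23Rik* was at 6498, 6005 and 5640 CPM, also above that range, while *Dnase2b* (429, 385 and 366 CPM) lay within it. Against the diet pool, with diet in the fit, 901 of 7934 genes were higher (11.4%) and 1189 lower. *Svs1* (1.21 ± 0.25, edgeR adjusted p 0.00078), *9530003J23Rik* (0.85 ± 0.19, 0.0019), *Ceacam10* (0.59 ± 0.18, 0.020) and *Sva* (0.81 ± 0.30, 0.048) were higher, and *Dnase2b* (0.43 ± 0.24, 0.199) did not pass. In the same fit the prostate-like markers *Tgm4* (-8.89 ± 0.99) and *Pbsn* (-7.91 ± 0.64) were lower in the single-mouse libraries. Basal markers summed to 2.88 to 6.19 CPM in their secretory cells against 42.1 to 140.0 CPM in those of the diet pool, and the median number of genes per cell was at most 1069 against at least 1517. The part of these measures in the differences was not tested. Scaled by library size alone, 124 genes were higher and 3081 lower, the median of all genes moved to -0.50, and of the 5 products *Svs1* alone kept its call, with *9530003J23Rik* at 0.32, *Sva* at 0.28 and *Ceacam10* at 0.06.

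Leaving out mice changed some of these calls. *Sva* lost its call in 8 of the 9 fits that left out 1 mouse each (0.63 to 1.00) and *Ceacam10* in 3 (without control diet pool replicate 1, and without the control or the low protein single-mouse library), while *Svs1* (1.09 to 1.32) and *9530003J23Rik* (0.72 to 0.92) kept theirs in all 9.

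The products were also followed along the share of *Svs* RNA within secretory cells. None of them was used to sort the cells. They were chosen, however, by their levels in cells defined by this share, so the tests below are not independent of that choice. Among the 17 mice that had 10 or more cells in both bins, cells with at least 60% *Svs* UMIs were set against cells with 30 to 60%, with mouse as a block and the 4 *Svs* genes left out of the counts. Of 6203 genes, 760 were higher (12.3%) and 995 lower, and all 5 products were higher. The log2 changes were 0.92 ± 0.08 for *Ceacam10* (edgeR adjusted p 3.22e-09), 0.89 ± 0.08 for *9530003J23Rik* (4.07e-09), 0.74 ± 0.10 for *Dnase2b* (1.18e-06), 0.62 ± 0.17 for *Sva* (0.0075) and 0.33 ± 0.09 for *Svs1* (0.0075). Markers of other cells were lower in the same contrast, with *Tgm4* at -2.11 ± 0.24 (edgeR adjusted p 1.75e-07), *Pbsn* at -1.60 ± 0.23 (6.40e-06) and *Lyz2* at -1.14 ± 0.35 (0.0154), and their part in the result was not tested. With library size alone, 119 genes were higher and 2572 lower (median of all genes -0.26), and *Svs1* (0.06, edgeR adjusted p 0.547) and *Sva* (0.36, 0.0696) were no longer called. In cells with at least 70% against 30 to 50% *Svs* UMIs, *Sva* did not pass (1.17, edgeR adjusted p 0.0716).

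Finer bands showed different shapes. In the aging pool, *Ceacam10* in CPM of the UMIs outside the *Svs* genes went from 17008 in cells with 30 to 40% *Svs* UMIs to 34867, 58332, 74826 and 87624 in the bands up to 70% and more. *9530003J23Rik* went from 4868 to 19982 over the same bands. *Svs1* was at 12670, 19045, 23745, 20468 and 16234, and *Sva* at 28213, 59442, 75434, 65194 and 56169, both with their highest level at 50 to 60%. Other library sets did not share these peaks. In the single-mouse diet libraries *Svs1* went from 5105 to 21677, 27656, 30913 and 36524, and *Sva* was highest at 60 to 70% (69702), as it was in diet-pool mice on other diets (62934), where *Svs1* was also highest in that band (17482). The top band held 10 cells in the aging pool, 15 in diet-pool mice on other diets and 164 in the single-mouse libraries, and these sums over mice carry no test. Of the 7 companion products outside the *Svs* share that could be tested, 6 were higher, with *Spinkl* at 1.12 ± 0.08, and *Defb42* did not pass (-0.0015 ± 0.16).

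The pattern of the secretory levels across mice was compared between the products and other genes. Pearson's r was taken over the log2 CPM of 21 mice, each library set centred on its own mean, among 794 genes of at least 100 CPM. It is given as a description, since mice share pools and depth. *Svs1* and *Dnase2b* were most like each other (r = 0.954), followed for *Svs1* by *Svs3a* (0.947) and *Svs3b* (0.942), and for *Dnase2b* by *Svs3b* (0.940) and *Defb42* (0.901). *Sva* was most like *Defb42* (0.915), *Pate4* (0.901) and *Pate14* (0.890). *Ceacam10* was most like *Svs5* (0.740), then *9530003J23Rik* (0.627), and *9530003J23Rik* was most like *Ceacam10* (0.627), *Tmed3* (0.594) and *Dnase2b* (0.589).

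Some of these likenesses were weaker and others stronger without the restricted mice. Without them (19 mice), *Svs1* and *Dnase2b* had a lower r of 0.635, and *Sva* and *Pate4* had a similar r of 0.885. The r was higher for *9530003J23Rik* and *Dnase2b* (0.797) and for *Ceacam10* and *Svs5* (0.837). *Ceacam10* was less like *Sva* (0.226) and *Dnase2b* (0.217) in these mice than *Sva* and *Dnase2b* were like each other (0.792).

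Relatives of the products were far lower than the products in secretory cells, and many had a median of 0. Of the amine oxidase family, *Doxl2* had a median of 31.5 CPM over 21 mice, while *Aoc1*, *Aoc2* and *Aoc3* had a median of 0. Of the *Sva* family, *Sval2* was at 20.5 CPM, and *Sval1*, *Sval3* and *Pip* had a median of 0. *Ceacam1* was at 4.94 CPM, and no UMI of *Ceacam9* or of *Ceacam11* to *Ceacam15* was counted in secretory cells. Among lysozymes, *Lyz2* was at 2.58 CPM and *Lyz1* at 0.585 CPM, and among DNases *Dnase2a*, the widely expressed lysosomal form, was at 16.2 CPM.

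*Ceacam10* was the product found in the libraries of the young and the old individual, which had no secretory cells. It stood there at 746 and 652 CPM, while *Svs1*, *Sva*, *9530003J23Rik* and *Dnase2b* were at most 3.51 CPM. In cells with epididymis markers *Ceacam10* was at 1527 CPM in the young individual (82.5% of 1551 cells with a UMI) and 857 CPM in the old individual (64.0% of 3306 cells). Cells with basal markers held 327 and 514 CPM. Fibroblast-marker cells held 30.0 and 36.1 CPM, smooth muscle-marker cells 29.9 and 49.4 CPM and endothelial-marker cells 11.4 and 22.4 CPM. None of the 81 and 26 cells with T and NK markers held a *Ceacam10* UMI. With 1 mouse each, the difference between the young and the old individual has no replicate check.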

How the data were processed

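Cells of 23 mice in 7 libraries were analysed from the UMI counts per gene and cell that the authors deposited without normalization, made with Cell Ranger 6.0.1 for the pools and 3.1.0 for the single-mouse libraries on mm10. Conditions of pooled mice came from the sample tag tables. Genes were joined by Ensembl identifier, without the tag rows. Cells entered with 500 or more genes, 200 or more UMIs and no more than 10% mitochondrial UMIs, and no doublet caller was run.

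UMIs were summed per mouse and class. Sums of mice with at least 10 secretory (5 prostate-like) cells were tested with edgeR 4.0.16 in R 4.3.3 (quasi-likelihood, TMM, filterByExpr), and p-values were adjusted by Benjamini-Hochberg over all genes tested at 0.05. Replicates are mice, and cells of a mouse were never counted as replicates. Replicate numbers did not pair mice, since correlations of same-numbered mice ran from -0.152 to 0.0709 in the aging pool and from -0.0819 to 0.0457 in the diet pool. Alternatives were DESeq2 1.42.0, other scalings, filters and class limits, and fits without each mouse in turn. With 2 or 3 mice per condition, the number of mice limits the precision. Named genes were the 5 products, the fixed lists of companions and relatives, and the 3 genes most like each product, apart from an item not reported here. The members and lists were chosen with earlier results of these data known. The tests in prostate-like cells and the split on *Sva* were added after the data had been seen. Promoters were read from RefSeq tables, which matched all 5 genes. Python 3.11.15 with pandas 2.3.3, NumPy 2.4.6, SciPy 1.17.1 and matplotlib 3.10.9 was used.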

Additional observations from a re-analysis of the deposited data

Results flagged for a closer look

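In the aging pool, *Sva* in secretory cells of 28 months mouse 1 stood at 5434 CPM, far from the nearest of the other 9 mice (23015 CPM), with a gap of 0.546 of the whole range. In the diet pool, caloric restriction mouse 2 stood apart for *Ceacam10*, at 12856 CPM with a gap of 0.662 of the range of 8 mice, and for *9530003J23Rik*, at 3509 CPM with a gap of 0.536. These are 3 of 30 groups checked for a sample far from the others, and chance alone picks out about 1 in 20. *Ceacam10* at 746 CPM in the young and 652 CPM in the old individual is a signal in libraries that enter no comparison between groups.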

How the results depend on the processing

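Over the 50 changes of single products in the 10 comparisons, 870 alternative values were computed, of which 826 kept their side of the threshold, 31 lost and 13 gained a call, and no called change reversed. The cause of these differences was not tested. With no filter on low counts, 15 genes were called on high fat, 34 on low protein, 287 under caloric restriction, 124 with age, 134 with rapamycin, 342 between strains and 103 in prostate-like cells under restriction. DESeq2 called 192 under restriction, 3 with age, 11 with rapamycin and 36 in prostate-like cells under restriction. Library size alone gave 151 under restriction, 3205 for single-mouse libraries, 66 between strains and 2691 between *Svs* bins, and without the *Svs* genes restriction gave 870. Cells with at least 50% *Svs* UMIs gave 1 gene on low protein, 125 under restriction, 1 with age and 1 with rapamycin, and at least 20% gave 6 with age. Without the 5% of cells with most UMIs, which left only 17 mice with enough cells, there were 2 on low protein, 44 under restriction, 24 with age, 31 with rapamycin, 1355 for single-mouse libraries and 691 between bins. The mice compared alone gave 1 on low protein, 2 with age and 26 between strains. Cells of both rules as secretory gave 1 with rapamycin, and bins of at least 70% and 30 to 50% gave 309. A replicate block within each pool gave 2 with age and 61 between strains, changed no other count of calls by over 1.5 times, and ended the calls of *Sva* (0.75, edgeR adjusted p 0.106) and *Ceacam10* (0.44, 0.149) between single-mouse libraries and pool. Without each mouse in turn the counts ran from 0 to 2 (low protein), 34 to 101 (restriction, 42 or fewer without the control single-mouse library, control pool replicate 1 or restriction replicate 2), 0 to 12 (age) and 4 to 20 (rapamycin), both highest without 28 months replicate 2, 1088 to 2090 (single-mouse libraries, lowest without the control one), 26 to 114 (strains, lowest without 3 months replicate 2), 8 to 21 and 426 to 697 (prostate-like cells, restriction and pools). In other cells, a limit of at least 50% moved *Svs1* to 1974, *Sva* to 3459, *Ceacam10* to 2841, *9530003J23Rik* to 761 and *Dnase2b* to 98.8 CPM, and all deposited cells gave *Svs1* 472, *Dnase2b* 49.6, *Sva* 702 and *9530003J23Rik* 226 CPM there, and *Svs1* 135 and *Sva* 225.2 CPM in prostate-like cells. Cell number limits several pool mice, with 15 to 17 secretory cells in 3 of them.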

Other observations

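Secretory cells with less than 0.1% of their UMIs on *Sva* also held 2 RNAs that the lists do not contain, *Ppp1r1b* and *Ldhb*, at higher levels than other secretory cells of the same mouse. The genes were chosen after their values had been seen. *Ppp1r1b* encodes a phosphatase inhibitor, and its log2 ratio of low to other cells ran from 5.54 to 7.86 in the 4 mice with a value. *Ldhb* encodes a lactate dehydrogenase subunit, and its ratio ran from 3.90 to 5.21 in the 4 mice with a value. The split was made on *Sva*, so no test is given.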
